A study of Mus musculus with 4 samples.

Results

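The 6 genes described here encode the chemokine receptors CCR4 (Ccr4), CCR8 (Ccr8), CXCR3 (Cxcr3) and CXCR4 (Cxcr4), the prostaglandin D2 receptor CRTH2 (Ptgdr2), and Ccdc86, the gene whose end overlaps that of Ptgdr2 on the other strand. They were taken by symbol from the 50600 genes of the count files, and all 6 were found. The samples were 4 RNA-seq libraries of mouse T-helper 2 (Th2) primary cells of strain C57BL/6NJ, labelled as biological replicates 1 to 4 of 1 group, with sex not collected and age unknown. The labels give each library its own biosample but all 4 the same donor entry, so the spread between them need not be a spread between mice. The file headers name a sort at 72 h. With 1 group, genes could be compared with each other inside a library, and libraries with one another.

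Chemokine receptors are G protein-coupled receptors that steer leukocytes along gradients of chemokines. CCR4, which binds CCL17 and CCL22, and CCR8, which binds CCL1, mark Th2 cells and also regulatory T cells, and guide them to skin and to allergic tissue. CXCR3 binds the interferon-induced chemokines CXCL9, CXCL10 and CXCL11 and is the classic homing receptor of Th1 cells, while CXCR4, which binds CXCL12, is found on most leukocytes. CRTH2 is not a chemokine receptor by ligand. It senses prostaglandin D2, a lipid released by mast cells, and is a surface marker of human Th2 cells, eosinophils and basophils. Ccdc86, also called cyclon, encodes a nuclear protein.

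The bases before the start sites of 4 of these genes are shown because Ccr4, Ccr8 and Cxcr4 each had their highest level in replicate 4, whereas Ptgdr2 had its lowest there. The windows hold the 250 bases before the RefSeq start (build GRCm38.p6), read 5′ to 3′ on the strand of the gene. Capitals mark matches, on either strand, to the GATA motif (GATAA or GATAG), the STAT6 motif (TTC and GAA with 4 bases between them), the STAT5 motif (TTCNNNGAA) or the AP-1 motif (TGANTCA). The windows are chr9:114496545-114496794 (minus strand) for Ccr4, chr9:120091883-120092132 (plus strand) for Ccr8, chr1:128592300-128592549 (minus strand) for Cxcr4 and chr19:10936910-10937159 (plus strand) for Ptgdr2.
Ccr4: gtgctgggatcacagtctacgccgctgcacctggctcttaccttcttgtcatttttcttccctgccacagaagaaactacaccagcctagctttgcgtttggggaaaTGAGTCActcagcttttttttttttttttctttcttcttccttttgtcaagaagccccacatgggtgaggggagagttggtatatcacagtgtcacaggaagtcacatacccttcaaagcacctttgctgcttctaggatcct
Ccr8: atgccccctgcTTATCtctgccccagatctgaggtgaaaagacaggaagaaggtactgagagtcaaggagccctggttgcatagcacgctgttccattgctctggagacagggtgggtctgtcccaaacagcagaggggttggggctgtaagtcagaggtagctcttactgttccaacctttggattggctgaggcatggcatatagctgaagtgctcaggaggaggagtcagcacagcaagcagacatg
Cxcr4: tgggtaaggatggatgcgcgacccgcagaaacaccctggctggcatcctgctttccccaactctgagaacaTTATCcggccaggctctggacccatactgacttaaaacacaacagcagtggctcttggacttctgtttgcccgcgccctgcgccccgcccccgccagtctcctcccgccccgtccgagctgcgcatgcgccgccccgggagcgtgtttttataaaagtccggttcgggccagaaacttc
Ptgdr2: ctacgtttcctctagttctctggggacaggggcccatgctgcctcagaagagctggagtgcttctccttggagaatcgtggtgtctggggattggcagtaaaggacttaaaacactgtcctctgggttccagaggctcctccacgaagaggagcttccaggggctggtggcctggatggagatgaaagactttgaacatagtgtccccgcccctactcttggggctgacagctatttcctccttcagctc
All 6 genes matched the RefSeq promoter table. Ccr4 held 1 AP-1 match, at positions -143 to -137 from the RefSeq start. Ccr8 held 1 GATA match at -239 to -235 and Cxcr4 held 1 at -179 to -175. The windows of Ptgdr2, Ccdc86 and Cxcr3 held no match to any of these letters. Of these, Ccdc86 and Cxcr3, whose windows are not shown, also had their highest TPM in replicate 4. Any link between a match and the levels was not tested. Over 32536 different promoter windows of the same length, 37.4% held a GATA match, 6.73% an AP-1 match, 5.89% a STAT6 match and 7.04% a STAT5 match. No window of the 6 genes held more than 1 match, so none overlapped another. The RefSeq start of Ccr4 lies 8372 bp inside the 5′ end of the gene as counted in the files.

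The libraries held 1274431 to 1857433 counts, so that 3 counts, the limit that a count of 0 allows, correspond to 1.62 to 2.35 counts per 1000000 (CPM). Counting error is the only error that this limit and the intervals below include. The counts are those of fragments on the strand that the counting program assigned to each gene. A gene counted as having an opposite exon shared at least 1 bp of exon with a gene on the other strand. The 42411 genes without one held 16.4%, 8.54%, 9.14% and 20.1% of the counts of replicates 1 to 4. In the mitochondrial genome mt-Nd6, the mRNA gene that lies on its own on the other strand, had 38990 to 49626 counts per kb, against at most 2853 for each of the other 12 mRNA genes. Il5 had 20.2 counts per kb over the 4 libraries, and Gm12214, opposite it, had 11751. Gata3 had 48.5, and Gm13256, opposite it, had 5392. Whether the counting option took the strand of the gene or the opposite strand was not tested here. Own-strand below means the strand as that option assigned it. These values were not taken as mRNA levels, and a value of 0 does not show that the RNA was absent. In bulk samples, fewer cells with a transcript and less of it per cell cannot be told apart.

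Ccr4 (chromosome 9, 114490316 to 114504916, minus strand, mm10) was counted in every library. It has 3093 bp of exon, none of it opposite another exon. It had 60, 42, 31 and 110 counts in replicates 1 to 4, which are 16.6, 10.3, 9.95 and 43.9 TPM (counts per exon length, scaled to the same total in each library), with a mean of 20.2 ± 16.1 TPM (SD, n = 4). Replicate 4 stood above the others, which lay close together. Its 86.3 CPM had a 95% Wilson interval of 71.6 to 104, whereas the next highest library, replicate 1, had 33.7 CPM (26.2 to 43.4). Without replicate 4 the mean was 12.3 TPM.

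Ccr8 (chromosome 9, 120092114 to 120094906, plus strand) has 1175 bp of exon, also with no exon opposite, and lies on the same chromosome as Ccr4. It had 13, 0, 5 and 25 counts in replicates 1 to 4, or 9.45, 0, 4.23 and 26.2 TPM, with a mean of 9.98 ± 11.5 TPM (SD, n = 4). As for Ccr4, replicate 4 was the highest library, and replicate 2 had no count. The interval of replicate 4, 13.3 to 29.0 CPM, lay just above that of replicate 1, 4.27 to 12.5 CPM. Without replicate 4 the mean was 4.56 TPM.

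Ptgdr2 (chromosome 19, 10937160 to 10942511, plus strand) had its lowest level in the library where the other 5 genes had their highest. It had 118, 88, 37 and 21 counts in replicates 1 to 4, or 38.1, 25.2, 13.9 and 9.80 TPM, with a mean of 21.8 ± 12.7 TPM (SD, n = 4). Replicate 1 was highest and replicate 4 lowest, with intervals of 55.3 to 79.3 and 10.8 to 25.2 CPM that did not overlap, while the intervals of replicates 3 and 4 did. The highest library exceeded the lowest 4.02-fold in CPM.

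Cxcr4 (chromosome 1, 128588199 to 128592293, minus strand) was almost confined to 1 library. It had 0, 1, 2 and 25 counts in replicates 1 to 4, or 0, 0.419, 1.10 and 17.1 TPM. Replicate 4 thus held 89.3% of all its counts, and without it the mean fell from 4.64 ± 8.29 TPM (SD, n = 4) to 0.506 TPM. In replicate 4 the 19.6 CPM (13.3 to 29.0) lay above the intervals of the other libraries, of which the highest reached 5.04 CPM.

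Cxcr3 (chromosome X, 101731535 to 101734269, minus strand) had 10 counts in replicate 4, or 7.13 TPM, and 0 in replicates 1 to 3. The 7.85 CPM in replicate 4 (4.26 to 14.4) lay above the upper bounds of the others, 2.07 to 2.66 CPM. Neither Cxcr3 nor Cxcr4 has an exon opposite another gene.

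Ccdc86 (chromosome 19, 10941481 to 10949266, minus strand) had 6, 5, 7 and 9 counts in replicates 1 to 4, or 0.888, 0.656, 1.20 and 1.92 TPM. It was low in every library, with a mean of 1.17 ± 0.55 TPM (SD, n = 4), and the intervals of all 4 libraries overlapped.

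**Figure D1:**
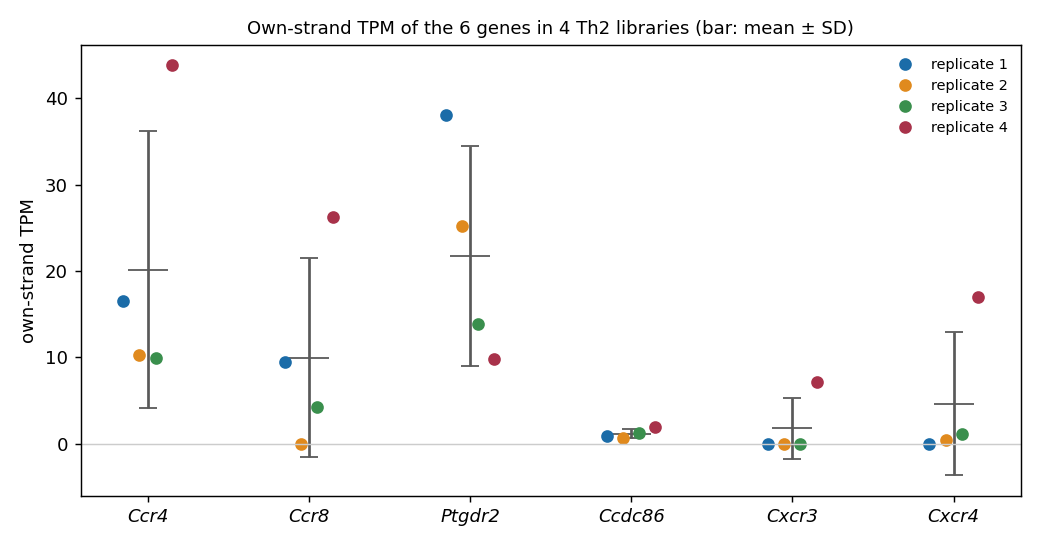
Own-strand TPM (vertical axis) of the 6 genes in each of the 4 Th2 libraries, with points coloured by replicate and bars showing the mean ± SD. Replicate 4 is the highest library for Ccr4 (43.9), Ccr8 (26.2), Cxcr4 (17.1), Cxcr3 (7.13) and Ccdc86 (1.92) and the lowest for Ptgdr2 (9.80).

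By mean TPM the order was Ptgdr2, Ccr4, Ccr8, Cxcr4, Cxcr3 and Ccdc86. Each gene differed from the next in this order by less than the larger of their SDs. The order was also not that of each library. In replicate 1 Ptgdr2 was the highest of the 6, and in replicate 4 it was lower than Ccr4, Ccr8 and Cxcr4.

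Ptgdr2 and Ccdc86 point toward each other and overlap at their 3′ ends. The shared stretch (chromosome 19, 10941481 to 10942511) is 1031 bp long. It makes up 39.0% of the 2644 bp of Ptgdr2 exon and 17.9% of the 5774 bp of Ccdc86 exon. In GENCODE M21 it lies wholly in exons and has 0 bp of coding sequence of either gene, so it is 3′ untranslated in both. Fragments in it can be assigned to 1 of the 2 genes only by strand. Over the 4 libraries Ptgdr2 had 99.8 counts per kb of exon and Ccdc86 had 4.68. On the scale of log2(TPM + 1), the difference of Ccdc86 from Ptgdr2 was -4.37, -3.98, -2.76 and -1.89 in replicates 1 to 4, with a mean of -3.25 ± 1.14 (SD, n = 4). The gap was negative in 4 of 4 libraries (exact two-sided sign-flip permutation p = 0.125, the smallest that 4 libraries allow), and it was narrowest in replicate 4. With all counts kept but divided by only the exon length outside the shared stretch, the mean gap was -3.78. That value is not a gap measured outside the stretch. The order of the 2 genes rests on the strand option. If the option took the opposite strand, fragments of Ccdc86 RNA in the shared stretch were counted for Ptgdr2 and those of Ptgdr2 RNA for Ccdc86, and the order of the 2 genes could turn around. Gene counts do not show where within the exons the fragments fell, so the counts of these 2 genes alone do not tell the 2 readings apart. This holds for every value of Ptgdr2 and Ccdc86 given here.

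**Figure D2:**
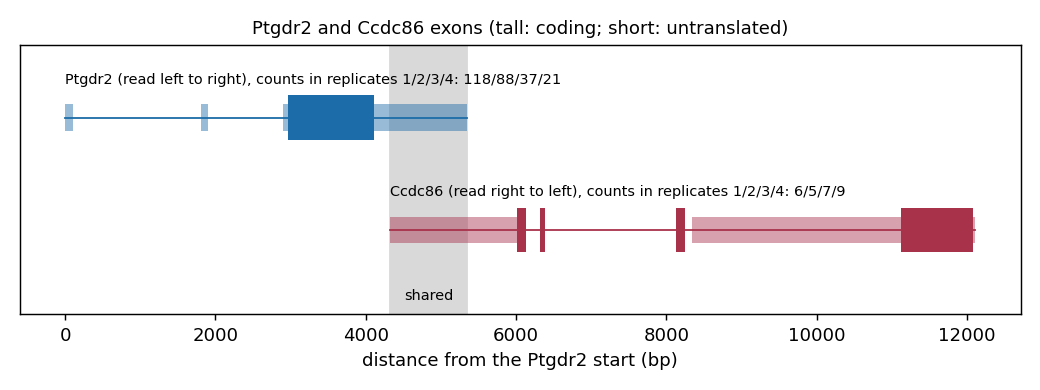
Exons of Ptgdr2 and Ccdc86 along the locus, in bp from the Ptgdr2 start, with coding parts tall, untranslated parts short and the shared stretch shaded. The shaded 1031 bp hold no coding sequence, and counts per library are written above each gene.

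The fixed pairs set the Th2 receptors beside CXCR3, the Th1 receptor, and beside each other. Ratios are differences in log2(TPM + 1) within a library, a scale that understates ratios to genes at 0. Ccr4 exceeded Cxcr3 by 4.14, 3.50, 3.45 and 2.47 in replicates 1 to 4, with a mean of 3.39 ± 0.69 (SD, n = 4). Ptgdr2 exceeded Cxcr3 by 3.58 ± 2.19, but by only 0.41 in replicate 4. Ccr8 exceeded it by 1.88 ± 1.42 and Cxcr4 by 0.68 ± 0.54, each in 3 of 4 libraries and with no difference in the fourth, where both genes of the pair had 0 counts. Cxcr3 had no count in 3 of the 4 libraries, so in those the difference could not be negative.

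Within the Th2 set, Ccr4 lay above Ccr8 by 1.51 ± 1.34 (SD, n = 4) and above Cxcr4 by 2.71 ± 1.18, each in 4 of 4 libraries. The Ccr8 gap was 3.50 in replicate 2, where Ccr8 had no count, and without that library its mean was 0.85. Ptgdr2 and Ccr4 did not hold a common order. Ptgdr2 was higher by 1.15, 1.22 and 0.44 in replicates 1 to 3 but lower in replicate 4, where the difference was -2.06, with a mean of 0.19 ± 1.54 (exact sign-flip permutation p = 0.875). Without replicate 4 that mean was 0.94, and without replicate 1 or 2 it was -0.13 or -0.15.

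The prostaglandin D2 receptors differed in that Ptgdr, which encodes the other receptor, DP1, had 0 counts in all 4 libraries. Ptgdr2 exceeded it by 4.33 ± 0.83, a difference that could not be negative. Of 9 pairs, 6 reached the smallest possible p of 0.125, and after Benjamini-Hochberg adjustment over the 9 pairs the smallest p was 0.19. No pair could pass 0.05 with 4 libraries, so the sizes and SDs describe these comparisons.

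**Figure D3:**
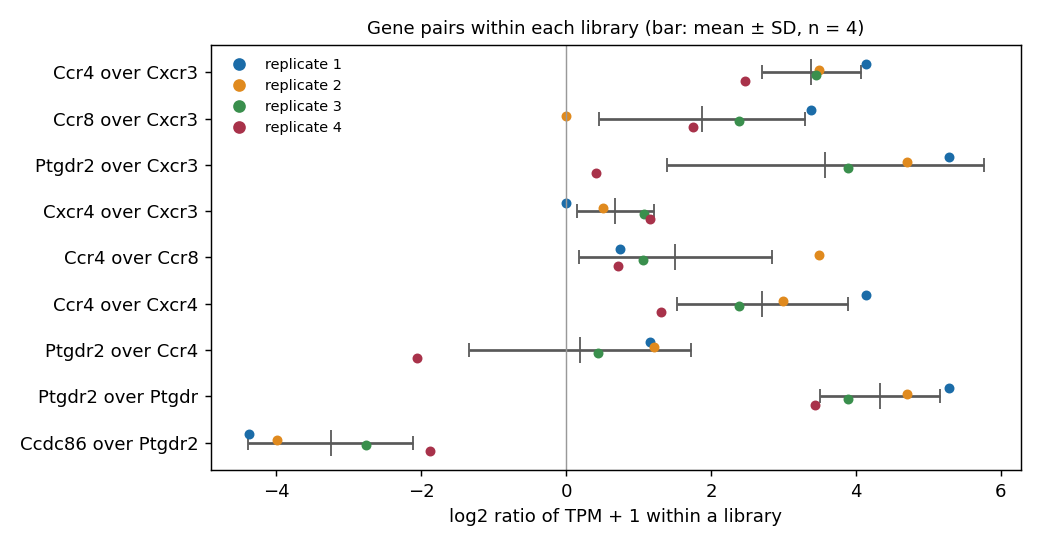
Differences in log2(TPM + 1) within each library (horizontal axis) for the 9 gene pairs, with points for replicates 1 to 4 and bars for the mean ± SD. Ptgdr2 over Ccr4 spans 0, from 1.22 in replicate 2 to -2.06 in replicate 4, and Ccdc86 over Ptgdr2 is below 0 in every library.

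The differences between replicates were then set against counting noise. Of the 6 genes, Ccr4, Ccr8 and Ptgdr2 reached a mean count of 10 and entered the tests, and Ccdc86, Cxcr4 and Cxcr3 did not. All 3 varied beyond Poisson sampling (chi-square test with TMM-scaled library sizes, Benjamini-Hochberg adjusted p = 3.75e-13 for Ccr4, 4.28e-07 for Ccr8 and 4.46e-12 for Ptgdr2). So did 88.2% of the 7752 genes tested, so this is the behaviour of most genes in these libraries. For Ccr4 it rested on replicate 4, without which the chi-square adjusted p was 0.434. Ptgdr2 still varied without replicate 4 (chi-square adjusted p = 0.000317). Among genes without an opposite exon, tested alone, 76.3% were called and Ccr4 (chi-square adjusted p = 0.000586) and Ccr8 (chi-square adjusted p = 0.00329) were among them. Without the count minimum, 70.3% of 16612 genes were called. Cxcr4 (chi-square adjusted p = 1.24e-12) and Cxcr3 (4.45e-06) were among them, and Ccdc86 was not (0.586).

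When the spread between libraries was estimated over all genes, none of the 3 passed the test in any library. Each library was compared with the other 3 by the edgeR quasi-likelihood test, which called 0%, 0.0129%, 0.0387% and 0% of the 7752 genes in replicates 1 to 4 (0, 1, 3 and 0 genes). DESeq2 called 0, 1, 0 and 0 genes, and 33, 216, 726 and 683 had an unadjusted edgeR p under 0.05. The largest Ccr4 difference was in replicate 4, at 1.43 ± 0.66 on the log2 scale (SE, edgeR adjusted p = 0.565). In the same library Ptgdr2 differed by -1.78 ± 0.83 (SE, edgeR adjusted p = 0.565) and Ccr8 by 2.21 ± 1.49 (SE, edgeR adjusted p = 0.602). These tests compare libraries, not conditions. On simulated counts with the observed dispersion the edgeR test recovered 1.5% of genes changed 4-fold in 1 library, so a missed call at this size does not show that the libraries were alike.

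The excess of Ccr4 in replicate 4 was smaller on a scale that left out genes with an opposite exon. The counts of genes without an opposite exon took the largest share in replicates 4 and 1 (20.1% and 16.4%). The summed T cell markers were highest in the same libraries. Of the 7 markers, 6 have no opposite exon and are themselves part of that share. All 7 markers of the T cell list, led by Cd2 (63.1 TPM), Cd5 (36.8 TPM), Lck and Cd4, had counts, and their summed level was 238, 84.9, 52.0 and 373 TPM in replicates 1 to 4. Per 1000000 counts of genes without an opposite exon, Ccr4 had 205, 265, 235 and 429. Replicate 4 was then 1.82-fold the mean of the others, against 3.33-fold in CPM. With the edgeR fit restricted to such genes, the Ccr4 difference in replicate 4 was 0.59 ± 0.63 (SE, adjusted p = 0.831) and that of Ccr8 1.57 ± 1.53 (SE, adjusted p = 0.807).

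For Ptgdr2, which itself has an opposite exon, the gap was wider on this scale. It had 404, 555, 280 and 81.8 per 1000000 such counts, so that replicate 4 was 0.198 of the mean of the others, against 0.355 in CPM, and the highest library was now replicate 2. Ccr8 had 44.5, 0, 37.8 and 97.4 and Cxcr4 0, 6.30, 15.1 and 97.4, with replicate 4 still the highest for both. Ccdc86, at 20.5, 31.5, 53.0 and 35.1, no longer had its highest value in replicate 4. The part of the T cell marker level in these patterns was not tested.

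**Figure D4:**
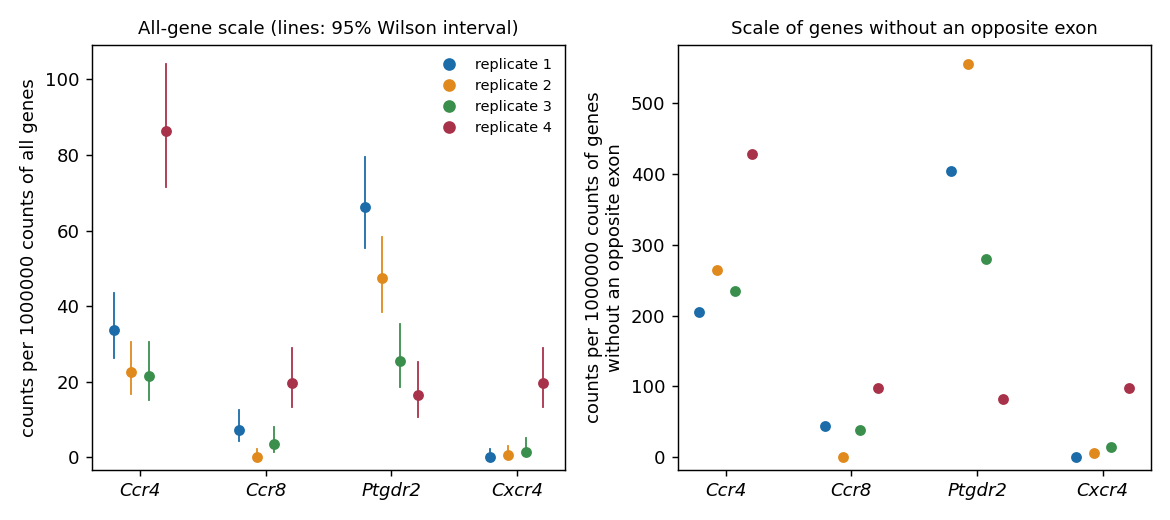
Counts of Ccr4, Ccr8, Ptgdr2 and Cxcr4 in each library, per 1000000 counts of all genes (left, lines: 95% Wilson interval) and per 1000000 counts of genes without an opposite exon (right). Replicate 4 is highest for Ccr4 on both scales (86.3 and 429) and lowest for Ptgdr2 on both (16.5 and 81.8).

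Each profile over the 4 libraries was also set beside those of 5335 genes (mean count 20 or more), by the mean absolute difference of centred log2(CPM + 1). The nearest to Ccr4 were Eml4 (0.058), a microtubule-binding protein gene, Nfat5 (0.070), a transcription factor gene, and Usp4 (0.071), a deubiquitinase gene. Eml4 had 21, 15, 10 and 43 counts. The nearest to Ccr8 were Nus1 (0.095), Mapk6 (0.12) and P2ry10 (0.133). None of these 6 has an exon opposite another gene. The nearest to Ptgdr2 were Tssk6 (0.079), which has 390 bp of exon opposite other exons, and Gm33142 (0.087), a gene model of unproven status, and Gm16183 (0.102), an antisense gene with 435 bp opposite. Tssk6 had 88, 75, 33 and 17 counts. With 4 libraries, close profiles are common, and this likeness is a description.

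Among the 18 conventional chemokine receptor genes, Ccr4 was the highest by mean TPM. Ccr7, the lymph node homing receptor of naive and central memory cells, followed with 51, 23, 16 and 55 counts and 18.3 ± 12.5 TPM (SD, n = 4), and it too was highest in replicate 4. Ccr8 came next. Cxcr1, a neutrophil receptor for CXC chemokines, had 0, 13, 14 and 8 counts and 5.64 ± 3.97 TPM, with replicate 1 at 0. In all, 17 of the 18 had a count in some library, 10 had a mean of at least 1 TPM, and 4 were counted in every library. Besides Ccr4 and Ccr7 these were Cxcr5, with 110 bp opposite Bcl9l, at 2.04 ± 0.43 TPM and Cxcr6 at 3.21 ± 2.04 TPM, named after their values were seen. The 1 receptor without a count was Ccr6, likewise named afterwards. Only 3 receptors, Ccr4, Ccr7 and Ccr8, entered the tests. All 3 varied beyond Poisson sampling and none was called by edgeR, as for most genes.

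**Figure D5:**
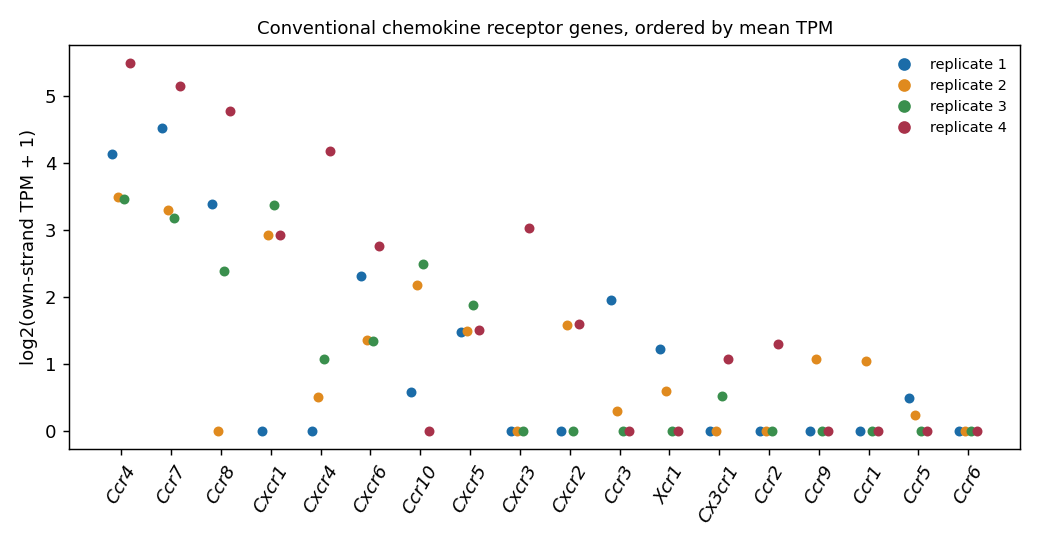
Own-strand level of the 18 conventional chemokine receptor genes as log2(TPM + 1), with points for replicates 1 to 4 and genes ordered by mean TPM. Replicate 4 is the highest library for Ccr4, Ccr7 and Ccr8, the 3 receptors that entered the tests.

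No ligand of these receptors was counted. Ccl17 and Ccl22 (ligands of CCR4), Ccl1 and Ccl8 (ligands of CCR8), Cxcl9, Cxcl10 and Cxcl11 (ligands of CXCR3) and Cxcl12 (the ligand of CXCR4) had 0 counts in all 4 libraries. Of the chemokines that T cells make, Ccl4 had 1 count in replicate 2, Ccl5 had 2 in replicate 3, and Ccl3 and Xcl1 had none. Among 5 atypical receptors, which scavenge chemokines without G protein signalling, Ackr4 had 41.9 ± 9.19 TPM (SD, n = 4). Of its 5380 bp, 479 lie opposite Acad11, which had 6, 5, 3 and 14 counts in replicates 1 to 4. Over the 4 libraries Ackr4 had 187 counts per kb and Acad11 had 2.86. Whether part of the Ackr4 counts are of the Acad11 locus was not tested. Ccrl2 had 2, 7, 0 and 0 counts, and Ackr1, Ackr2 and Ackr3 had none.

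Of the 9 prostanoid receptor genes, 5 were counted, Ptgdr2 among them. Ptger4, a prostaglandin E2 receptor gene, had 29.5 ± 5.11 TPM (SD, n = 4) and has 1097 bp opposite other exons. Ptger2, also a prostaglandin E2 receptor gene, has none and had 41, 77, 30 and 80 counts, or 15.1 ± 8.51 TPM. Replicates 2 and 4 were thus the higher for Ptger2, a library order shared with neither Ptgdr2 nor Ccr4. Ptgdr shares 705 of its 3187 bp with Gm16976 on the other strand, which had 159, 141, 140 and 67 counts while Ptgdr had 0. Of the enzymes that make prostaglandin D2, the hematopoietic synthase gene Hpgds had 3, 5, 4 and 1 counts and Ptgds had 1, 0, 0 and 0. The cyclooxygenase genes Ptgs1 and Ptgs2 had 0 in every library.

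The 15 listed genes that carry the signal of chemokine receptors each had a count in some library, as did 16612 of all 50600 genes. Not all were counted in every library. Gng2 had 0 counts in replicate 4, Rgs2 in replicate 2 and Rgs16 in replicate 3, named after their values were seen. All 15 had a mean of at least 1 TPM, led by Rac2, a GTPase of leukocyte movement (24.6 ± 18.0 TPM), the G protein subunit genes Gnai2 (20.1 ± 13.1 TPM) and Gnb1 (13.9 ± 5.17 TPM), and the receptor kinase gene Grk2 (16.4 ± 9.65 TPM). Of these 15, 12 entered the tests. Their median log2 difference from the other libraries was 0.51, -0.79, -1.20 and 0.86 in replicates 1 to 4, against -0.02, -0.21, -0.24 and 0.05 over all genes tested. The list was thus high in replicates 1 and 4, whereas Ptgdr2 was high in replicate 1 and low in replicate 4. Of the 15 genes, 13 have no opposite exon. All genes without one together took their largest shares of counts in replicates 4 and 1 (20.1% and 16.4%). The list was not compared with such genes alone. The edgeR test called 0 of the 12 in any library, and 12 of the 12 varied beyond Poisson sampling, as did 88.2% of all genes tested.

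Of 15 other homing and adhesion genes, 12 had a mean of at least 1 TPM. The highest were Itgb1 (20.1 ± 3.88 TPM), Itgb2 (17.4 ± 12.3 TPM), Selplg, the P-selectin ligand gene (16.6 ± 7.89 TPM), and Gpr183, an oxysterol receptor gene (16.2 ± 3.02 TPM). Itgb2, a leukocyte integrin chain, had 97, 21, 26 and 71 counts, while Itgb1, a chain shared by many cell types, had 114, 80, 90 and 65. Of the 11 genes tested, 9 varied beyond Poisson sampling, a share close to the 88.2% of all genes, and edgeR called 0. Their median log2 difference was 0.33, -0.41, 0.13 and -0.17 in replicates 1 to 4, against -0.02, -0.21, -0.24 and 0.05 over all genes tested.

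Markers of other cells that can carry these receptors were mostly at 0 on the strand counted. Since that may be the strand opposite the gene, these zeros do not show that such cells were absent. Eosinophils and basophils carry CRTH2. Of 7 eosinophil markers, Epx had 4 counts and Ear2 had 1, both in replicate 2 alone, and Siglecf, Prg2 and Il5ra had 0. None of the 8 basophil and mast cell markers, Mcpt8 and Cpa3 among them, had a count. Regulatory T cells carry CCR4 and CCR8, and 3 of 4 markers of theirs were counted, with a summed level of 431, 199, 197 and 589 TPM in replicates 1 to 4. Ikzf2, the marker at 0, encodes Helios, Il2ra and Ctla4 are also induced by activation, and Foxp3 has 590 bp of exon opposite Ccdc22. This sum was highest in replicates 4 and 1, as were Ccr4, Ccr8 and the summed T cell and Th2 markers. Il2ra (200, 56.7, 54.1 and 264 TPM) and Ctla4 (88.7, 29.9, 39.6 and 198 TPM) had that order. Foxp3, at 143, 112, 104 and 127 TPM, was highest in replicate 1. The part of this sum in the levels of Ccr4 and Ccr8 was not tested. All 4 Th2 markers, Gata3, Il4, Il5 and Il13, were counted, with a summed level of 196, 115, 110 and 314 TPM. They did not move as a set. Il13, at 106, 39.0, 33.0 and 213 TPM, was highest in replicate 4, as were Gata3 and Il5. Il4, at 72.4, 67.9, 68.0 and 64.3 TPM, was lowest there. Of 5 CD8 and natural killer markers, Nkg7 alone had counts, with 0, 0, 5 and 4. None of 4 myeloid markers had any. Of the B cell markers, Ms4a1 was at 0 in every library and Cd79b had 1 count, in replicate 1. Cd79a, a part of the B cell receptor complex, had 35, 41, 9 and 2 counts in replicates 1 to 4, or 12.4 ± 9.99 TPM (SD, n = 4). It was high in replicates 1 and 2 and lowest in replicate 4, as was Ptgdr2. The summed level of the B cell list was 21.1, 21.3, 6.13 and 1.69 TPM, and its part in the Ptgdr2 values was not tested.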

How the data were processed

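RNA-seq was analysed for 4 libraries of mouse Th2 cells. The authors deposited raw counts of fragments for each gene, without normalization. Per the file headers, featureCounts (v1.4.6-p4) counted sorted STAR alignments over GENCODE M13 exons, taking pairs with both ends mapped and strand option 1. The assembly is mm10 per the labels, and the STAR version is not stated there. The assay is labelled total RNA-seq, but its linked protocol is titled for poly(A) libraries.

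Symbols came from GENCODE M21 (50376 of 50600 identifiers matched). The other 224, with 0.402% to 0.477% of all counts, were kept in every fit. TPM was scaled by the deposited exon lengths, CPM by total counts. Tests used Python 3.11.15, scipy 1.17.1, R 4.3.3, edgeR 4.0.16 and, as an alternative, DESeq2 1.42.0, on the 7752 genes whose mean count reached 10, with Benjamini-Hochberg adjustment at 0.05 over all of them. The SE of an edgeR log2 difference is its size divided by the root of its F statistic. Pairs were tested over the 4 libraries by exact sign-flip permutation, two-sided.

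The tests were tried on simulated counts for these 7752 genes. The chi-square test called 0 genes with no change and recovered 65.5% and 100% of 200 genes changed 2-fold and 4-fold in replicate 1. The edgeR test recovered 0%, 1.5% and 75.5% at 2-fold, 4-fold and 16-fold.

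Named genes were the 6 genes, the genes of the pairs, the 4 highest of each list, ligands of the receptors, the 3 nearest profiles, and the opposite partners and nearest counted neighbours of the 6 genes. The genes and lists were chosen with earlier results of these data known. The results for 2 genes that this rule names are not reported here.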

Additional observations from a re-analysis of the deposited data

Results flagged for a closer look

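In 3 cases the values had 1 library far from the other 3, judged by the gap to the nearest library as a share of the whole range against Dixon's 95% critical value for 4 values. In all, 15 sets of 4 values were examined, and chance flags about 1 in 20 such sets if the values are normally distributed, which was not tested. For Cxcr3 the share was 1, since replicate 4 had 7.13 TPM and the others 0. Any gene counted in 1 library alone gives a share of 1, whatever its count. For Cxcr4 it was 0.936, with replicate 4 at 17.1 TPM. For the log2 ratio of Ccr4 over Ccr8 it was 0.875, with replicate 2, where Ccr8 had no count, at 3.50.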

How the results depend on the processing

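TPM rescaled over genes without an opposite exon raised each level by construction, to 153 for Ccr4, 69.4 for Ccr8, 189 for Ptgdr2, 9.59 for Ccdc86, 11.2 for Cxcr3 and 31.0 for Cxcr4. Ptgdr2 had 35.7 TPM when all its counts, those of the shared stretch included, were divided by only the exon length outside that stretch. Ptgdr2 over Ccr4 ranged from -0.15 to 0.94 over the fits that leave out 1 library, and turned negative without replicate 1 (-0.13) or 2 (-0.15). The other 8 pairs kept their sign under every alternative run. With a minimum of 5 TPM, 4 of the 18 receptors were detected in place of 10. Leaving out 1 library gave 8 to 11. The count of genes varying beyond Poisson sampling was 11679 with no filter on counts and 2919 among genes without an opposite exon, where more or fewer genes were tested, and 5573 to 6589 with 1 library left out.

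The edgeR count for replicate 2 against the others was 3 with median-of-ratios factors and 3 with no filter. For replicate 4 it was 3 and 3. For replicate 3 it was 0 with DESeq2 and 0 among genes without an opposite exon. Leaving out 1 of the other libraries, added after seeing the data, gave 0 to 169 calls for replicate 1, 1 to 400 for replicate 2, 2 to 741 for replicate 3 and 3 to 1083 for replicate 4. The lone library is there assumed to vary like the others, and the cause was not tested. The largest counts came from leaving out replicate 4, 3, 2 and 1 in turn.

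Among single genes, the difference of Ccr8 in replicate 1 turned from -0.016 to 0.031 with no filter. That of Ccr4 in replicate 1 ranged from -0.68 to 0.34 with 1 library left out, the highest without replicate 4, and in replicate 2 it turned to 0.14 among genes without an opposite exon. None of these was called. The nearest profiles were the same genes with TMM scaling. No paired analysis was possible because all libraries belong to 1 group. Low counts limit what can be said of Cxcr3, Cxcr4, Ccr8 and Ccdc86, with 10 to 43 counts in all. The cause of the low counts was not tested.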

Other observations

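The nearest counted gene on the higher side of Ccr8 was Gm47050, a model of unproven status on the same strand, 756 bp beyond its end. It had 48, 17, 6 and 32 counts in replicates 1 to 4, or 11.4 ± 8.29 TPM (SD, n = 4), and so had counts in replicate 2, where Ccr8 had none. Beside Ccr4, Trim71 (2216 bp away, same strand) had 0, 4, 2 and 1 counts. Glb1 (15417 bp away, other strand) had 24, 25, 26 and 25 counts, or 7.99 ± 1.80 TPM. Its counts were nearly equal before scaling to depth, and replicate 4 was the smallest library, with 1274431 counts. Beside Ptgdr2, Prpf19, a splicing factor gene 27600 bp away on the same strand, had 33, 14, 8 and 31 counts, highest in replicates 1 and 4. On the far side of Ccdc86, Ms4a15 had 1 count, in replicate 2. Beside Cxcr3, Ogt had 133, 33, 19 and 198 counts, highest in replicate 4 as was Cxcr3, and Nhsl2 had 2 counts, both in replicate 4. Beside Cxcr4, the pseudogene Gm6170 had 1 count, in replicate 4, and Gm15674, which lies 1830530 bp away, had 139, 109, 105 and 51. On the lower side of Ccr8, Gm33858 had 1 count, in replicate 3.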
